A study of Mus musculus with 4 samples.

Results

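Neuropeptide Y and its receptors are described here through 4 genes, *Npy*, *Npy1r*, *Npy2r* and *Npy5r*, of the 32285 genes counted in nuclei of the posterior mouse hindbrain. The genes were taken by name, and their values were read in all 134 neuronal clusters and all 14 cell types that the authors assigned to 39461 nuclei kept after quality control. This deposited annotation holds slightly fewer neuronal clusters than the paper reports. Nuclei came from the part of the hindbrain that holds the area postrema (AP) and the nucleus of the solitary tract (NTS), and were sorted on the DNA dye DRAQ5 before library preparation. The comparison was between 2 libraries from control mice (WT in the labels) and 2 libraries from AgRP-Gq;POMC-Gi mice. Mice of both groups carried the alleles hM3DGqfl/- and hM4DGifl/-, per the study's methods. In AgRP-Gq;POMC-Gi mice AgRP-IRES-Cre+/- released the activating receptor hM3DGq in AgRP neurons and POMC-Dre+/- released the inhibitory receptor hM4DGi in POMC neurons, whereas the controls carried neither recombinase. Both designer receptor alleles sat in the Rosa26 locus behind a CAG promoter and a stop cassette, on a C57BL/6 background. Mice of both sexes, 12 to 20 weeks old, received clozapine-N-oxide (CNO), the ligand of the designer receptors, at 3 mg per kg in both groups, and tissue was taken 1 h later without food. Samples of a condition were pooled, from 2 mice per group, and which mice went into which library is not given, so p-values measure the spread between these libraries, part of which may be technical.

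Neuropeptide Y (NPY) is a peptide of neurons that promotes feeding, and in the hypothalamus it is made by AgRP neurons. In the hindbrain it is known from catecholamine neurons of the NTS and from local inhibitory neurons. Its receptors are G protein-coupled receptors that act through Gi/o proteins, lowering cyclic AMP, opening inwardly rectifying potassium channels and closing calcium channels. The receptor encoded by *Npy1r* is mostly postsynaptic and is also found on vascular smooth muscle, the receptor of *Npy2r* is known as a presynaptic autoreceptor that also binds the gut peptide PYY, and the receptor of *Npy5r* is often found in neurons that hold *Npy1r*.

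*Npy* (ENSMUSG00000029819) lies on chromosome 6 at 49822710 to 49829507 of GRCm38, on the plus strand. *Npy2r* (ENSMUSG00000028004) lies on chromosome 3 at 82538383 to 82548084, on the minus strand. *Npy5r* (ENSMUSG00000044014, chromosome 8, 66679965 to 66688128, minus strand) and *Npy1r* (ENSMUSG00000036437, chromosome 8, 66697192 to 66706792, plus strand) stand head to head with 9064 bases between their starts, and none of the 4 genes overlapped another annotated gene. The bases before the annotated start of 3 of the genes are shown because they are the regulatory sequence nearest to genes whose levels differed so widely between clusters. They are taken from RefSeq on GRCm38.p6, and 250 bases are shown for *Npy* (chr6:49822460-49822709, plus strand) and *Npy2r* (chr3:82548086-82548335, minus strand) and 216 for *Npy5r* (chr8:66688129-66688344, minus strand), each 5′ to 3′ in the direction of the gene, with capitals marking the motif matches described next.
Npy: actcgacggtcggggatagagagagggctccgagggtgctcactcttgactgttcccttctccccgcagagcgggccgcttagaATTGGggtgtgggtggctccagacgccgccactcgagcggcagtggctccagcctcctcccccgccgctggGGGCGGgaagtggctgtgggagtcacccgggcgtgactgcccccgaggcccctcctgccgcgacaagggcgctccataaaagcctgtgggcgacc
Npy2r: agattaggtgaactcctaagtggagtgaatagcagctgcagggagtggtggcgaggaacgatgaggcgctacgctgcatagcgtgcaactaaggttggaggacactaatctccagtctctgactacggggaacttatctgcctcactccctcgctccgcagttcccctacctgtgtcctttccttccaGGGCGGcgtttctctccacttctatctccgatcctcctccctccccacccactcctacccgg
Npy5r: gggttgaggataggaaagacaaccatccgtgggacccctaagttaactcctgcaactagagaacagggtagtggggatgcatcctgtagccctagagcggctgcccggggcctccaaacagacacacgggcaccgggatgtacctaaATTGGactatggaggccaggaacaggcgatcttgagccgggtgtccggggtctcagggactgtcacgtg
Of the window of *Npy1r* all but 20 bases lie in the first exon of a longer annotated transcript, so it is not shown.

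In windows of 250 bases before to 50 after the RefSeq start, 4 motifs were searched on both strands, the TATA box TATAAA, the GC box GGGCGG, the CCAAT box CCAAT and the core CCCNNGGG of sites bound by EBF factors, whose gene *Ebf2* recurs below. *Npy* had a GC box at -95 and a CCAAT box (as ATTGG) at -166 from the start, *Npy2r* a GC box at -62 and *Npy5r* a CCAAT box (as ATTGG) at -103. The RefSeq start of *Npy5r* lies inside the gene as GENCODE draws it, so the bases shown for it stop short of the start from which -103 is counted. *Npy1r* had none of the 4, and none of the 4 windows held TATAAA or CCCNNGGG. Among 32851 promoter windows these motifs stood in 35.7% (GC box), 37.4% (CCAAT box), 13.6% (TATA box) and 13.7% (EBF core). The windows of *Npy*, *Npy1r*, *Npy2r* and *Npy5r* held 68.0%, 51.7%, 57.7% and 61.7% G or C, beside a median of 52.7% over all windows.

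The 4 libraries held 9725 and 10051 nuclei (control replicates 1 and 2) and 9723 and 9962 nuclei (AgRP-Gq;POMC-Gi replicates 1 and 2), with 48904976 to 53089402 unique molecular identifiers (UMIs) each. Neurons, 12539 in all, made up 25.4% and 27.2% of control and 38.01% and 36.5% of AgRP-Gq;POMC-Gi nuclei, and their median depth was 9623.5, 8727.5, 8252 and 8514 UMIs in the same order. The neuronal markers *Rbfox3* and *Syt1* averaged 256 and 1348 counts per 1000000 UMIs (CPM) in neurons, against 8.36 and 26.5 in oligodendrocytes. The libraries stood apart in several ways. The replicate 2 libraries held 436 and 329 choroid plexus nuclei and the replicate 1 libraries 2 and 6, and the choroid plexus transcript *Ttr* reached 1003 and 580 CPM in neurons of the former but 1.49 and 7.53 in those of the latter. *Xist*, made from the inactive X chromosome of females, was at 16.2 CPM in neurons of AgRP-Gq;POMC-Gi replicate 2 and at 319 to 541 in the other 3, so the AgRP-Gq;POMC-Gi libraries did not hold the same mix of mice. The part of either difference in the results below was not tested beyond leaving out each library, and 168 barcode sequences occurred in more than 1 library.

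Across all neurons the 4 genes were sparse. In the order control replicates 1 and 2, then AgRP-Gq;POMC-Gi replicates 1 and 2, which is kept throughout, *Npy* stood at 4.58, 3.72, 3.20 and 6.63 CPM. It was highest in AgRP-Gq;POMC-Gi replicate 2 and lowest in AgRP-Gq;POMC-Gi replicate 1, so the range of the control libraries lay within that of the other group. *Npy1r* stood at 7.45, 7.15, 6.77 and 8.70 CPM, and *Npy2r* at 3.54, 3.86, 2.84 and 3.66 CPM. *Npy5r* stood at 11.5, 11.4, 9.36 and 12.9 CPM. For *Npy1r* and *Npy5r* too, the AgRP-Gq;POMC-Gi libraries held both the lowest and the highest value.

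A UMI of *Npy* was found in 344 neurons, one of *Npy1r* in 740, one of *Npy2r* in 352 and one of *Npy5r* in 1182. The share of neurons with *Npy* was 3.00% (95% Clopper-Pearson interval 2.36 to 3.75), 2.67% (2.10 to 3.34), 1.98% (1.55 to 2.48) and 3.41% (2.84 to 4.05) in the 4 libraries. For *Npy1r* the share was between 5.17% and 6.82%, for *Npy2r* between 2.22% and 3.44% and for *Npy5r* between 7.85% and 10.6%. These intervals cover counting error only. Oligodendrocytes, which should lack these genes, had *Npy* in 0.535% to 1.29% of nuclei and each receptor in at most 0.302%, at a median of 2460 UMIs per nucleus against 8704 in neurons. After thinning every neuron to 2000 UMIs, which left out 72 control and 94 AgRP-Gq;POMC-Gi neurons, the mean shares were 0.939% for *Npy*, 1.55% for *Npy1r*, 0.731% for *Npy2r* and 2.28% for *Npy5r*. Most carriers held a single UMI, 69.8% for *Npy*, 78.9% for *Npy1r*, 82.7% for *Npy2r* and 83.7% for *Npy5r*, so a nucleus without a UMI is not shown to lack the transcript.

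Between cell types the 4 genes were spread differently. *Npy5r* was close to neuronal, with 97.6% of its UMIs in neurons and at most 1.17 CPM in any other type, whereas neurons held 89.8% of *Npy2r* UMIs, 87.2% of *Npy1r* UMIs and 63.04% of *Npy* UMIs. Outside neurons each of the latter 3 had a type in which it was higher than in neurons. *Npy5r* had no UMI in several types, among them Ms4a4b immune, F13a1 immune and ependymal cells. At 3 counts this allows up to 29.1, 18.1 and 3.23 CPM there. The share of *Npy* does not show neuronal enrichment, because neurons also held much of all UMIs. They held 26860073 of 49615951 in control replicate 1 and 35583732 of 51033439 in AgRP-Gq;POMC-Gi replicate 1. By mean level of *Npy*, neurons took place 7 among the types, at 4.53 ± 1.51 CPM. Astrocytes (4.84) and endothelial cells (4.66) stood slightly above them and oligodendrocytes (3.52) below. Cell types were built from expression, so these are descriptions without a test.

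**Figure D1:**
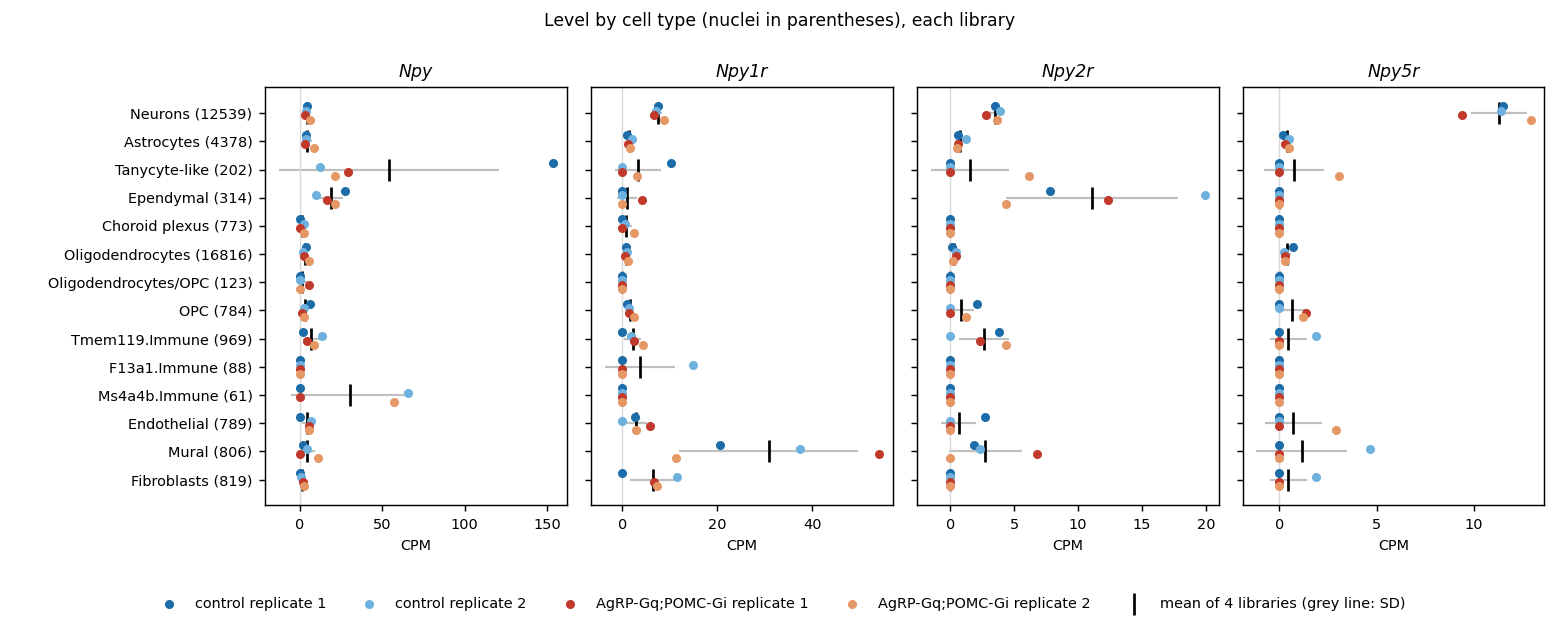
Level (CPM, x axis) of the 4 genes in each of the 14 cell types (y axis, nuclei in parentheses), with a point for each library, a black bar for the mean of 4 libraries and a grey line for the SD. *Npy* is highest in tanycyte-like cells through 1 library at 154 CPM, *Npy1r* in mural cells, *Npy2r* in ependymal cells and *Npy5r* in neurons.

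*Npy* in tanycyte-like cells, glia that line the ventricle beside the AP, was at 154, 12.5, 29.1 and 21.5 CPM (mean 54.2 ± 66.7, SD, n = 4, 202 nuclei). Control replicate 1 stood far above the other 3 libraries, and without it the highest mean passed to the Ms4a4b immune cells, which rested on 4 UMIs. Ependymal cells, the ciliated lining of the ventricle, held *Npy* at 18.9 ± 7.41 CPM, with every library at or above 9.95, and oligodendrocytes held it at 3.52 ± 1.49, with 5.50 as the highest library. Of the tanycyte-like clusters, looked at after these values were seen, cluster 141 (60 nuclei, *Gfap* 497 and *Aqp4* 293 CPM) held *Npy* at 253, 0, 69.6 and 70.9 CPM from 15, 0, 3 and 6 UMIs. The other, cluster 61, held it at 9.82 ± 9.14.

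*Npy1r* in mural cells, the pericytes and smooth muscle cells of vessels, was at 20.6, 37.4, 54.1 and 11.2 CPM (mean 30.8 ± 18.9, 806 nuclei), and in neurons at 7.52 ± 0.84. Every mural library was above every neuronal one. Fibroblasts followed at 6.39 ± 4.74 and oligodendrocytes stood at 0.86. Mural nuclei fell into 2 clusters, also looked at afterwards. Cluster 98 (100 nuclei), in which the smooth muscle genes *Acta2* and *Myh11* averaged 1407 and 699 CPM, held *Npy1r* at 158, 141, 189 and 0 CPM and in 15.0% of nuclei. Its value of 0 came from 15 nuclei, and that of 189 from 2 UMIs in 7 nuclei. Cluster 13 (706 nuclei), with *Acta2* at 1.16 and the pericyte gene *Pdgfrb* at 1861 CPM, held it at 0, 16.8, 43.7 and 12.3 CPM.

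*Npy2r* in ependymal cells was at 7.81, 19.9, 12.4 and 4.35 CPM (mean 11.1 ± 6.72) and in neurons at 3.47 ± 0.44, while oligodendrocytes stood at 0.30. All 4 ependymal values lay above all 4 neuronal ones, but they rest on 10 UMIs in 314 nuclei. The cilium gene *Dnah12* averaged 1800 CPM in ependymal cells and 1.41 in neurons.

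Among neurons, *Npy* was the most concentrated of the 4 genes. The 5 clusters with the highest mean CPM among those holding 5 or more nuclei per library, together with smaller ones that exceeded the fifth, were followed for each gene. Of the neuronal clusters, 47 had no UMI of *Npy*, 20 none of *Npy1r*, 61 none of *Npy2r* and 8 none of *Npy5r*. The clusters needed to hold 50% of the neuronal UMIs numbered 5 for *Npy*, 18 for *Npy1r*, 14 for *Npy2r* and 26 for *Npy5r*. The median neuronal cluster held *Npy* at 1.14, *Npy1r* at 4.58, *Npy2r* at 0.80 and *Npy5r* at 9.35 CPM. Of 120 clusters holding 5 or more nuclei per library, the lowest library stood above the highest oligodendrocyte library in 5 clusters for *Npy*, 32 for *Npy1r*, 16 for *Npy2r* and 56 for *Npy5r*. That bar differed between genes, at 5.50, 1.19, 0.421 and 0.729 CPM in the same order, so these counts do not rank the genes. For the receptors it asked for little more than a UMI in every library. Of all neuronal clusters, 32, 16 and 58 had one for *Npy1r*, *Npy2r* and *Npy5r*.

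**Figure D2:**
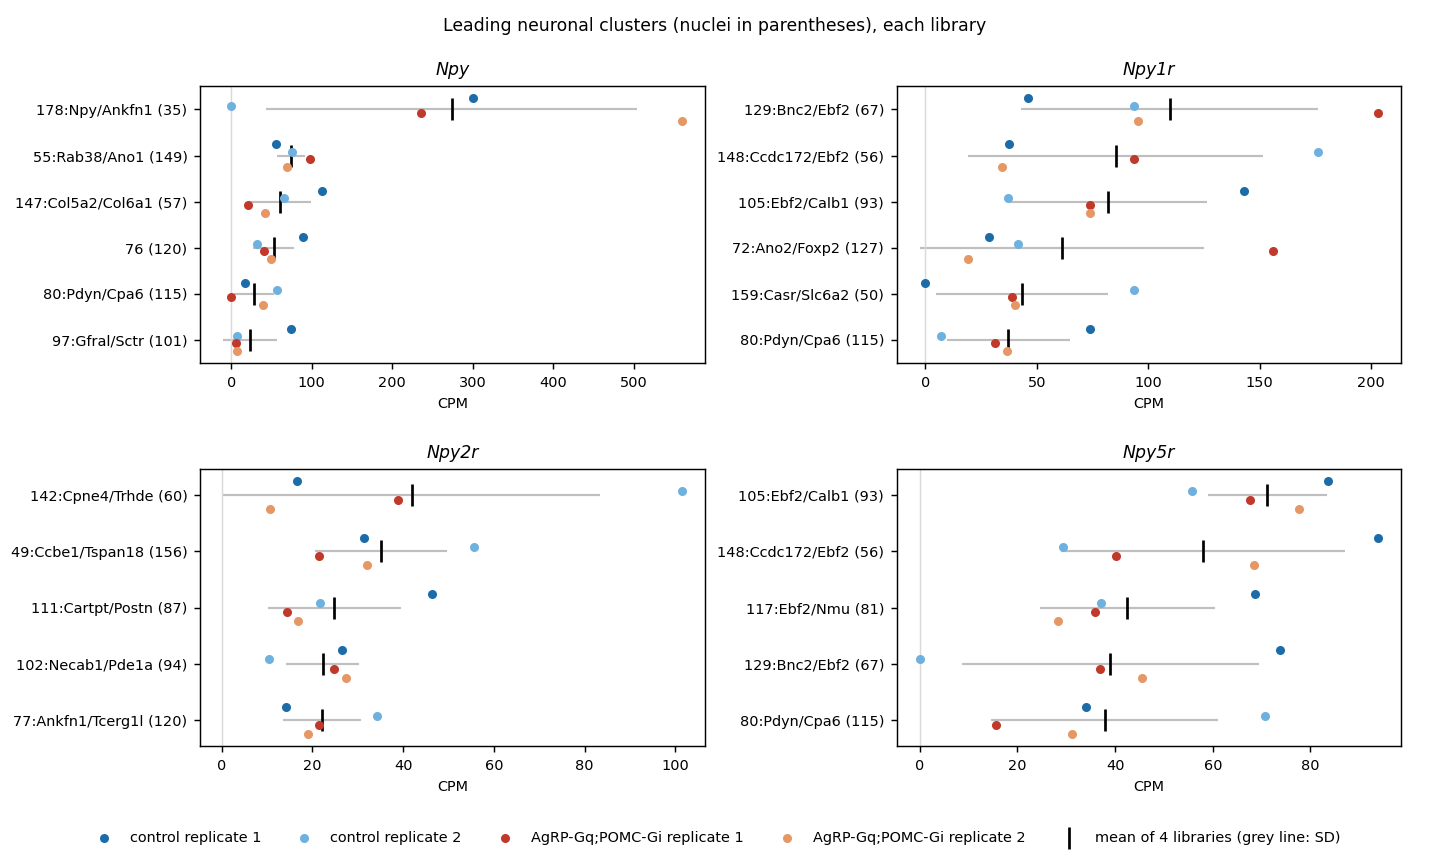
Level (CPM, x axis) of each gene in its leading neuronal clusters (y axis, number, name and nuclei, cluster 76 by its number alone), with a point for each library, a black bar for the mean of 4 libraries and a grey line for the SD. *Npy* in cluster 178 ranges from 0 to 560 CPM, and 4 of the 5 leading *Npy5r* clusters and the 3 leading *Npy1r* clusters carry *Ebf2* in their names, with *Npy5r* in cluster 105 between 55.7 and 83.5 CPM.

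*Npy* was highest in 178:Npy/Ankfn1, a cluster that the authors named for it, at 300, 0, 235 and 560 CPM. Its 35 nuclei were divided as 7, 2, 7 and 19, its UMIs of *Npy* as 13, 0, 13 and 75, and 71.4% of the nuclei carried at least 1. With *Gad1* at 131 and *Gad2* at 196 CPM, which make GABA, and *Slc17a6*, the vesicular glutamate transporter, at 8.44, its leading transmitter genes were those of inhibitory neurons, and the opioid precursor *Penk* stood at 221 CPM. By the rule on transporter genes given below, the cluster had too few of their UMIs and got no transmitter call. *Npy1r* and *Npy2r* had no UMI there, which allows up to 11.4 CPM at 3 counts over the cluster, and *Npy5r* averaged 9.50 CPM. A value of 0 in control replicate 2 rests on 2 nuclei.

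In larger clusters *Npy* was steadier. The GABAergic 55:Rab38/Ano1 (149 nuclei) held it at 55.4, 75.6, 97.7 and 68.8 CPM and in 39.6% of nuclei, together with the glycine transporter *Slc6a5* at 150, somatostatin (*Sst*) at 131 and *Penk* at 160 CPM. The catecholaminergic cluster 76 (120 nuclei) held it at 89.1, 32.1, 40.7 and 49.4 CPM and in 15.0% of nuclei. All libraries of both clusters stood above the 5.50 CPM reached in oligodendrocytes. Cluster 76 also held *Dbh*, which makes noradrenaline, at 75.2, *Th* at 67.2, *Ddc* at 224 and *Slc17a6* at 163 CPM, and among its 18 *Npy* carriers 38.9% had a single UMI and 1 had 11.

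The glutamatergic 147:Col5a2/Col6a1 (57 nuclei) held *Npy* at 113, 65.5, 21.4 and 42.6 CPM. The glutamatergic 80:Pdyn/Cpa6, named for prodynorphin, stood at 17.05, 56.5, 0 and 39.6 CPM. Next in the order, 97:Gfral/Sctr, AP neurons with the GDF15 receptor gene *Gfral*, stood at 73.9, 7.31, 6.11 and 7.06 CPM, and the high value came from 5 UMIs in 1 of 7 nuclei. In each of the 18 pairs of neighbours in the orders of the 4 genes the ranges over libraries overlapped, so no neighbours in these orders differed beyond their spread.

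*Npy1r* was highest in 3 glutamatergic clusters named for the transcription factor gene *Ebf2*. In 129:Bnc2/Ebf2 (67 nuclei) it stood at 46.1, 93.5, 203 and 95.5 CPM, and 41.8% of the nuclei held a UMI. In 148:Ccdc172/Ebf2 (56 nuclei) it stood at 37.6, 176, 93.8 and 34.2 CPM. In 105:Ebf2/Calb1 (93 nuclei) it stood at 143, 37.1, 73.8 and 73.7 CPM, with a UMI in 33.3% of nuclei. The lowest of these 12 values, 34.2 CPM, was above every library's value for all neurons.

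Next came 72:Ano2/Foxp2 at 28.5, 41.5, 156 and 18.9 CPM, where the high value came from 7 UMIs in 6 nuclei, and 80:Pdyn/Cpa6 at 73.9, 7.06, 31.1 and 36.8 CPM. The small 159:Casr/Slc6a2 (50 nuclei), with the noradrenaline transporter *Slc6a2* at 176, *Dbh* at 88.1 and galanin (*Gal*) at 186 CPM, stood at 0, 93.8, 39.01 and 40.1 CPM, with 3 nuclei behind the 0.

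*Npy5r* shared 4 of these leading clusters. It stood at 83.5, 55.7, 67.6 and 77.8 CPM in 105:Ebf2/Calb1, the narrowest spread among the leading clusters of this gene (71.2 ± 12.2), and 34.4% of the nuclei held a UMI. In 148:Ccdc172/Ebf2 it stood at 93.9, 29.3, 40.2 and 68.4 CPM, and in 117:Ebf2/Nmu, named also for neuromedin U, at 68.7, 37.2, 35.8 and 28.4 CPM. In 129:Bnc2/Ebf2 it stood at 73.7, 0, 37.0 and 45.5 CPM, with 6 nuclei behind the 0, and in 80:Pdyn/Cpa6 at 34.1, 70.6, 15.6 and 31.1 CPM. Over 11 clusters with *Ebf2* in their names, a grouping made after the values were seen and not tested, the median cluster held *Npy5r* at 19.9 CPM (8.42 to 71.2) and *Npy1r* at 11.2 (2.82 to 110). Of these clusters 9 were called glutamatergic, and the 60 glutamatergic clusters without *Ebf2* in the name had medians of 8.45 and 6.70. Neither gene was high in all of them: the larger of the 2 clusters called Bnc2/Ebf2, cluster 51 with 155 nuclei, held *Npy1r* at 2.82 ± 3.29 and *Npy5r* at 8.42 ± 6.68 CPM.

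*Npy2r* had another set of leading clusters. It stood at 16.6, 101, 38.8 and 10.5 CPM in 142:Cpne4/Trhde (60 nuclei), whose value of 101 came from 6 UMIs, and at 31.4, 55.6, 21.4 and 32.02 CPM in 49:Ccbe1/Tspan18 (156 nuclei). Both had *Gad2* (188 and 291 CPM) and *Slc6a5* (67.4 and 108) above *Slc17a6* (1.44 and 12.3). However, *Slc32a1*, the vesicular GABA transporter, stood at 40.4 CPM in cluster 49, which by the rule given next counts as mixed. Cluster 142 had under 20 UMIs of *Slc17a6* and under 20 of *Slc32a1*, and so got no transmitter call. The glutamatergic 111:Cartpt/Postn, with the satiety peptide gene *Cartpt* at 1086 CPM, stood at 46.3, 21.7, 14.4 and 16.7 CPM. The GABAergic 102:Necab1/Pde1a and the glutamatergic 77:Ankfn1/Tcerg1l averaged 22.2 ± 7.98 and 22.2 ± 8.61 CPM. In the leading 5 clusters of *Npy2r* no library was at 0, and over the 11 clusters named for *Ebf2* the median of *Npy2r* was 0 CPM.

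By transmitter, with clusters called glutamatergic or GABAergic where one of the transporter genes *Slc17a6* and *Slc32a1* was at least 4-fold above the other, 69 clusters were glutamatergic, 46 GABAergic and 7 mixed, and 12 were not called. *Npy1r* stood at 10.9, 9.26, 8.95 and 12.6 CPM in glutamatergic neurons and at 3.66, 4.89, 4.90 and 3.90 CPM in GABAergic neurons. Every glutamatergic value was above every GABAergic one. *Npy5r* was at 12.0 ± 2.06 and 11.2 ± 0.79 CPM in the 2 classes, *Npy* at 3.47 ± 0.96 and 5.00 ± 1.03 and *Npy2r* at 2.64 ± 0.29 and 3.40 ± 0.80, with overlapping ranges for all 3. For *Npy* this overlap leaves out its leading cluster, 178:Npy/Ankfn1, which got no call and is in neither class. The 12 clusters not called held *Npy* at 15.8, 0, 9.23 and 83.5 CPM. Mixed clusters held *Npy2r* at 7.41 ± 3.12 CPM, of which cluster 49, at 35.1 CPM, was the highest.

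Across the 120 clusters the level of *Npy1r*, as log2(mean CPM + 1), was most like that of *Naf1* (r = 0.47), *Npy5r* (r = 0.46) and *Mak* (r = 0.45) among 13053 genes, and that of *Npy5r* most like *Npy1r* (r = 0.46), *Oprd1* (r = 0.43), the gene of the delta opioid receptor, and *Col26a1* (r = 0.42). *Npy* was most like *Rnf180* (r = 0.44), *Prrt1* (r = 0.43) and 9330185C12Rik (r = 0.41), and *Npy2r* most like the orphan receptor gene *Gpr101* (r = 0.42), *Stk32c* (r = 0.40) and 4930590L20Rik (r = 0.39). The points share libraries and low counts. Between the replicate 1 and the replicate 2 libraries each gene correlated with itself at r = 0.46 (*Npy*), 0.63 (*Npy1r*), 0.68 (*Npy2r*) and 0.53 (*Npy5r*), and each of the 4 stood above the r of that gene with any other gene named here.

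**Figure D3:**
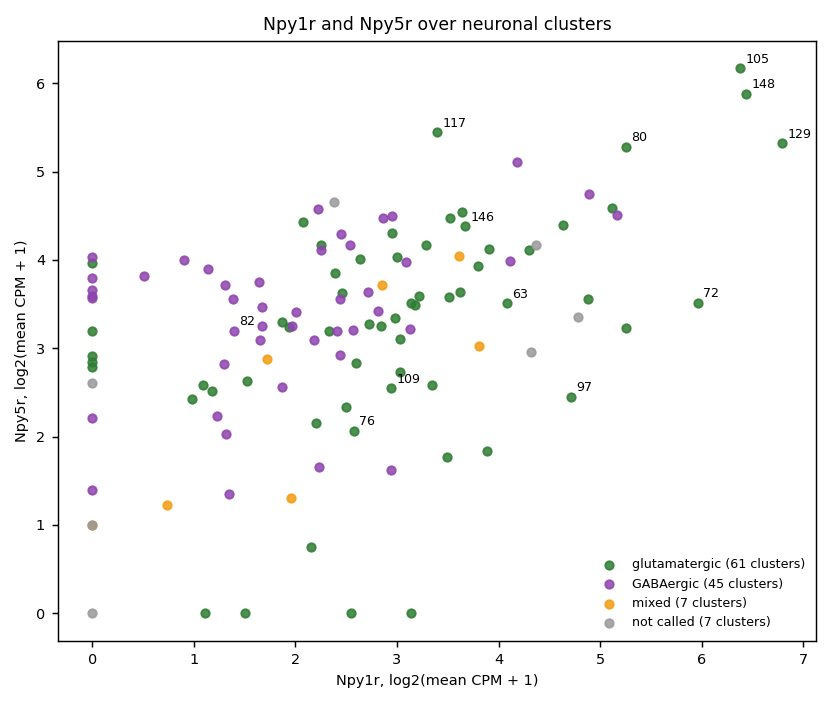
Mean level over 4 libraries of *Npy1r* (x axis) and *Npy5r* (y axis), both as log2(mean CPM + 1), with a point for each of 120 neuronal clusters coloured by transmitter and some cluster numbers written beside them. Clusters 105, 148 and 129 stand at the upper right, and cluster 72 is high for *Npy1r* alone (r = 0.46 over clusters).

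Single nuclei showed the same pair of receptors together. Of the 740 neurons with *Npy1r*, 167 (22.6%) also had a UMI of *Npy5r*, against 8.60% of the other neurons, but carriers were deeper (median 10177.5 against 8593 UMIs). Thinned to 5000 UMIs the shares were 12.2% and 4.90%. Set against neurons of the same clusters, they were 12.2% and 7.19%, and the share was higher in carriers in 4 of 4 libraries (12.7, 9.89, 12.9 and 13.1% against 7.14, 6.17, 6.97 and 7.79%). In cluster 105, 31 nuclei had *Npy1r*, 32 had *Npy5r* and 13 had both. For peptide and receptor, of the 344 *Npy* carriers 24 had *Npy1r*, 26 had *Npy5r* and 11 had *Npy2r*. At 5000 UMIs and within clusters, *Npy5r* was found in 3.94% of *Npy* carriers and 5.54% of their neighbours, and it was lower in carriers in 4 of 4 libraries. *Npy1r* was found in 4.59% of *Npy* carriers and 3.06% of their neighbours, with carriers higher in 2 of 4 libraries (6.34, 2.92, 8.38 and 2.67% against 3.65, 3.79, 3.67 and 3.23%). The pooled share of neighbours thus lay below that of each library. *Npy2r* was found in 1.97% of *Npy* carriers and 1.26% of their neighbours, with carriers higher in 3 of 4 libraries.

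The study followed 6 neuronal clusters for their immediate early genes or their catecholamine genes. *Npy* was uneven among them. It stood at 52.9 ± 25.2 CPM in cluster 76 and at 6.11 to 7.31 CPM in 3 libraries of 97:Gfral/Sctr, where control replicate 1 held 73.9, whereas 63:Ebf2/Th, in which *Th* comes without *Dbh*, had no *Npy* UMI in 139 nuclei, which allows a share of nuclei with a UMI of up to 2.16%. The preproglucagon cluster Gcg/Reln had none in 89 nuclei (up to 3.37% with a UMI). The Rxfp1/Ebf2 cluster and 82:Tal1/Nell1 had 1 and 2 UMIs. *Npy1r* was at 3.92, 15.0, 32.1 and 12.7 CPM in cluster 63, at 14.8, 43.9, 24.4 and 17.7 CPM in cluster 97 and at 0, 9.18, 5.43 and 5.20 CPM in cluster 76. In cluster 97 every library was above the neuronal range of 6.77 to 8.70, but the 14.8 CPM of control replicate 1 came from 1 UMI in 7 nuclei. *Npy5r* averaged 19.9 ± 15.6 CPM in the Rxfp1/Ebf2 cluster and 10.4 ± 9.80 in cluster 63, and *Npy2r* had no UMI in clusters 63 and 97 or in the Rxfp1/Ebf2 cluster.

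Whether activating AgRP and inhibiting POMC neurons went with other levels of these genes was tested on the UMI sums of the libraries by the quasi-likelihood method of edgeR, with Benjamini-Hochberg adjustment over all genes tested. In all neurons 0 of the 4 genes were called, beside 1 of 21200 genes (0.00472%), with 0 of 4 at an unadjusted p under 0.05 and 0 called by DESeq2. The log2 change of AgRP-Gq;POMC-Gi over control was 0.29 ± 0.30 (SE) for *Npy* (95% interval -0.40 to 0.98, adjusted p = 0.880), 0.14 ± 0.15 for *Npy1r* (-0.21 to 0.49, adjusted p = 0.885), -0.13 ± 0.19 for *Npy2r* (-0.57 to 0.31, adjusted p = 0.919) and 0.02 ± 0.15 for *Npy5r* (-0.32 to 0.35, adjusted p = 0.989). The value of *Npy* turned with 1 library and 1 cluster. It was -0.26 without AgRP-Gq;POMC-Gi replicate 2 and -0.03 in neurons outside cluster 178, a setting added after the data were seen. That library held 75 of the 101 *Npy* UMIs of the cluster. *Npy5r* stood at -0.17, *Npy1r* at 0.007 and *Npy2r* at -0.27 without the same library. Without AgRP-Gq;POMC-Gi replicate 1 *Npy1r* stood at 0.26 and *Npy2r* at -0.009.

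**Figure D4:**
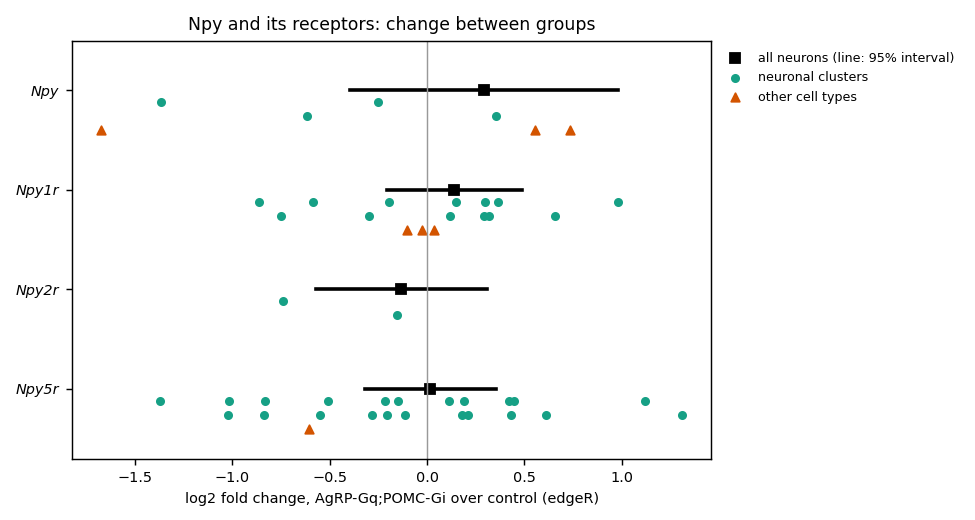
Log2 fold change of AgRP-Gq;POMC-Gi over control (x axis) of each gene (y axis) in all neurons (squares with the 95% interval), in each neuronal cluster tested (circles) and in each other cell type tested (triangles). The 4 intervals include 0, and the cluster values lie on both sides of it, from -1.37 to 1.31.

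In single clusters 41 of 480 pairs of a member gene and a cluster had the 20 UMIs asked for, 4 for *Npy*, 13 for *Npy1r*, 2 for *Npy2r* and 22 for *Npy5r*. None was called, beside 242 of 822754 pairs of any gene and cluster (0.0294%), and DESeq2 called 0 as well. An unadjusted edgeR p under 0.05 was reached by 2 of the 41 pairs, beside 40140 of the 822754, namely *Npy* in 147:Col5a2/Col6a1 (log2 change -1.37 ± 0.61, edgeR adjusted p = 0.9995) and *Npy5r* in 89:Necab1/Arhgap15 (1.31 ± 0.62, adjusted p = 0.999). In the clusters the study followed, the change was -0.25 ± 0.48 for *Npy* in cluster 76 and -0.59 ± 0.77 for *Npy1r* in cluster 97, and the other pairs of these clusters had too few UMIs. In the leading clusters *Npy* in cluster 55 stood at 0.35 ± 0.36, *Npy1r* in cluster 129 at 0.98 ± 0.61 and *Npy5r* in cluster 105 at 0.11 ± 0.53. The standard errors of the 41 pairs ran from 0.36 to 0.83 on the log2 scale, so a pair not called is not shown to be unchanged.

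In other cell types 7 of 48 pairs were tested and none was called, beside 121 of 106245 (0.114%). 0 had an unadjusted p under 0.05, and DESeq2 called 0. The values ran from -1.67 ± 0.79 for *Npy* in tanycyte-like cells (edgeR adjusted p = 0.816), where control replicate 1 stood far above the rest, to 0.74 ± 0.42 for *Npy* in astrocytes. *Npy1r* in mural cells was at -0.03 ± 0.60.

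Of 18 further genes of the pathway, listed with earlier results of these data known, 16 had enough UMIs in neurons and none was called, with 9 higher, 7 lower and a median log2 change of 0.01 beside 0.00 over all genes. Among the other ligands, *Ppy* had no UMI in neurons and *Pyy* had 39, 16, 21 and 0, of which 69 (90.8%) lay in 9 nuclei of cluster 30:Zfp804b/Npas1 (36, 12, 21 and 0). The receptor gene *Npy4r* had 3, 2, 1 and 2. Of the 6 genes that process the peptide, the convertase *Pcsk2* averaged 445 ± 32.1 CPM in neurons, the amidating enzyme *Pam* 278 ± 15.5, *Scg5* 213 ± 13.2, the carboxypeptidase *Cpe* 197 ± 9.41 and the convertase *Pcsk1* 35.6 ± 10.1. *Dpp4*, whose peptidase cuts NPY outside the cell, averaged 6.04 ± 0.35 CPM and was found in 4.90% of neurons. *Pcsk1* had no UMI in cluster 178 and averaged 130 CPM in cluster 76, 110.6 in cluster 129 and 230.1 in cluster 148. *Pcsk2* had the only unadjusted p under 0.05 of the 16, beside 1169 of 21200 genes (0.19 ± 0.08, edgeR adjusted p = 0.847). Of the Gi/o effectors, the potassium channel genes *Kcnj3* and *Kcnj6* averaged 417 ± 19.9 and 110.3 ± 1.27 CPM, with log2 changes of 0.13 ± 0.08 and 0.06 ± 0.07 (adjusted p = 0.847 and 0.908). The other effectors went both ways, with *Kcnj9* at 0.05 and *Cacna1b* at 0.13. Lower were *Gnai1* at -0.14, *Gnai2* at -0.17, *Gnai3* at -0.08, *Gnao1* at -0.05 and *Kcnj5* at -0.39.

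Immediate early genes, which neurons induce within minutes of activity, were compared in neurons that held a UMI of each gene. Such carriers are not all shown to make *Npy*. Of the 344 *Npy* carriers 25, 59, 15, 18, 12 and 6 lay in the leading clusters 178, 55, 147, 76, 80 and 97. Over all of them 69.8% held a single UMI, and oligodendrocytes had a UMI of *Npy* in 0.535% to 1.29% of nuclei. The 10 immediate early genes are those the study used, and on which samples they were picked is not given, so their direction is not taken as independent evidence. In *Npy* carriers 9 of the 10 were higher and 1 was lower in AgRP-Gq;POMC-Gi with no filter beyond 1 UMI, with a median log2 change of 0.93 beside -0.01 over all genes, and in that fit 1700016P03Rik was called (edgeR adjusted p = 0.0018), as were 57 of 20702 genes. The 20 UMIs asked for were reached by 8, some of them mainly through AgRP-Gq;POMC-Gi replicate 2, so that their being higher (8 of 8, median 0.92) is partly set by the filter. The median was 1.34 without control replicate 1 and 0.61 without control replicate 2 (7 higher and 1 lower), and with edgeR's filterByExpr it was 0.29 over 4 genes. None of the 8 was called (1 of 12077 genes was, 0.00828%), and the lowest adjusted p was 0.407, with 4 at an unadjusted p under 0.05, beside 600 of 12077, and 0 called by DESeq2. 1700016P03Rik, the host transcript of miR-132 and miR-212, stood at 16.5, 21.2, 53.5 and 51.2 CPM, a log2 change of 1.501 ± 0.286 (adjusted p = 0.407). *Fos* stood at 1.18, 7.07, 12.6 and 21.0 CPM in carriers (2.17 ± 0.64, adjusted p = 0.869), from 1, 5, 8 and 25 UMIs, and at 5.84, 5.13, 5.12 and 7.83 CPM in all other neurons. *Homer1* and *Nr4a3* had log2 changes of 0.49 ± 0.19 and 1.44 ± 0.56 (adjusted p = 0.936 for both). The change of *Fos* was 1.34 when control replicate 1 was left out and 3.76 when control replicate 2 was, and that of *Nr4a3* was 2.44 and 0.92. Leaving out control replicate 2 gave a call for both 1700016P03Rik and *Fos* among 66 of 11340 genes, and leaving out AgRP-Gq;POMC-Gi replicate 2 gave one for 1700016P03Rik among 63 of 10715. In such a fit the lone library of a group is assumed to vary like those of the other group.

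**Figure D5:**
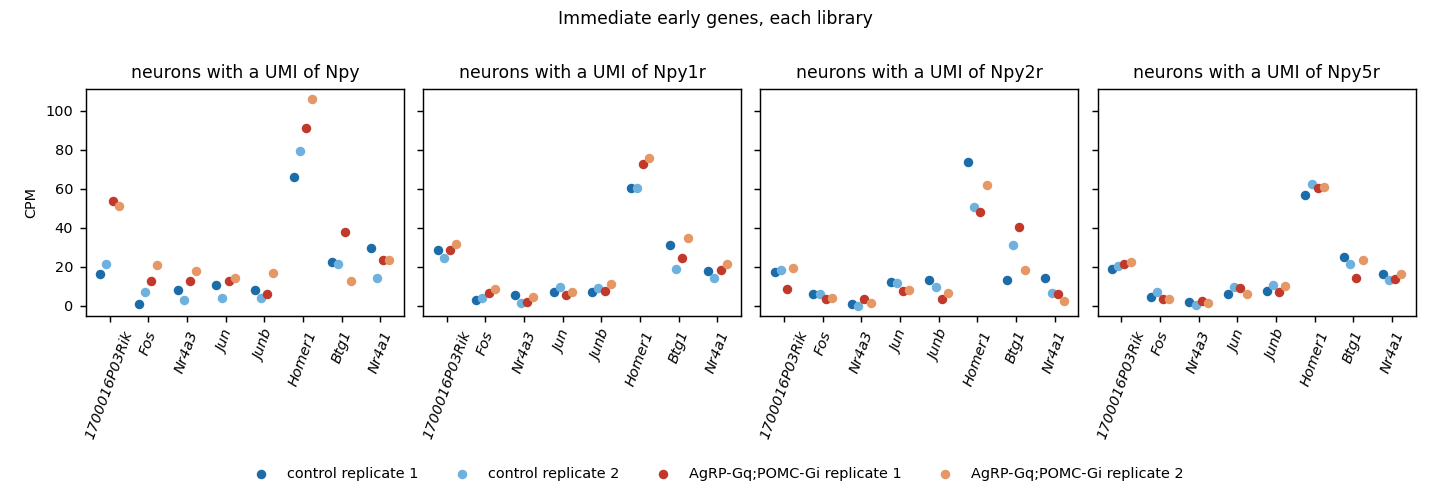
Level (CPM, y axis) of 8 immediate early genes (x axis) in neurons with a UMI of *Npy*, *Npy1r*, *Npy2r* and *Npy5r* (panels), with a point for each library. In *Npy* carriers 1700016P03Rik lies at 16.5 and 21.2 CPM in the control libraries and at 53.5 and 51.2 CPM in those of the other group, and in *Npy5r* carriers at 18.9 and 20.6 beside 21.2 and 22.6 CPM.

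The makeup of the *Npy* carriers differed between libraries. Of 74, 73, 73 and 124 carriers, 4, 0, 6 and 15 lay in cluster 178 and 7, 9, 16 and 27 in cluster 55. Cluster 76 held 2, 4, 7 and 5 of them and cluster 147 held 4, 6, 2 and 3. Among all neurons the share of cluster 178 was 0.28, 0.07, 0.19 and 0.52%, and that of cluster 55 was 0.89, 0.69, 1.14 and 1.81%. Whether this makeup differs between the groups was not tested. Outside cluster 178, a setting added after the data were seen, 1700016P03Rik had a log2 change of 1.58 ± 0.29 (adjusted p = 0.145) and none of the 8 genes was called. The part of cluster 55 was not tested. In *Npy1r* carriers 8 of 10 genes were higher (median 0.33) and 0 were called, beside 0.0207% of 14467 genes, with 2 at an unadjusted p under 0.05 (beside 892 genes), *Fos* (1.17 ± 0.47, adjusted p = 0.702) and *Homer1* (0.36 ± 0.15, adjusted p = 0.745). In *Npy2r* carriers 1 of 7 was higher and 6 were lower (median -0.52), with 0 called beside 0.024% of 12526 genes and 0 at an unadjusted p under 0.05. With no filter beyond 1 UMI 4 of 10 were higher and 6 lower (median -0.17), with 1 at an unadjusted p under 0.05 and 0 called beside 59 of 21162 genes. In *Npy5r* carriers 6 of 10 were higher (median 0.05), with 0 called beside 0% of 15756 genes and 0 at an unadjusted p under 0.05. That median was -0.10 and 0.18 without control replicates 1 and 2, and 0.03 and -0.12 without AgRP-Gq;POMC-Gi replicates 1 and 2. DESeq2 called 0 in all 3, and whether the carriers of the 4 genes differ from each other was not tested.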

How the data were processed

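RNA of hindbrain nuclei was measured in 4 libraries made with a 10x Genomics 3′ kit. The authors ran Cell Ranger 7.0.0 on GRCm38 (mm10) and deposited for each library UMI counts per gene and nucleus, before their filter, with a table of UMI totals, kept nuclei, clusters and cell types. Per their methods, nuclei with under 800 UMIs or 500 genes or over 10% mitochondrial RNA and called doublets were removed, and clusters came from an scVI embedding. Totals computed from the deposited counts equalled the table in 44303 of 44303 barcodes. Clusters and types were not computed again.

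CPM are a gene's UMIs, added up over the nuclei of a cluster or type in 1 library, per 1000000 UMIs of these nuclei. The library was the replicate (n = 2 per group, for which an exact permutation test cannot go below p = 0.333). Group tests used edgeR 4.0.16 (glmQLFit, TMM) in R 4.3.3 on genes with at least 20 UMIs over the libraries, in clusters holding 5 or more nuclei per library, with a threshold of 0.05 on the Benjamini-Hochberg adjusted p. The authors' mixed model, nebula, was not used here. Alternatives were no TMM factors, DESeq2 1.42.0, 3 other gene filters, a block for the replicate number, and the omission of each library. The fits were run on simulated counts with planted changes larger than any found for the 4 genes in the main fits. The power to call smaller changes was not tested. Clusters with under 20 UMIs of the marker genes got no transmitter call. Genes of at least 500 neuronal UMIs entered the search for likeness. Named clusters were the 5 with the highest mean CPM per gene plus smaller ones above the fifth and the 6 the study followed. A listed gene is not reported here. The member genes, gene lists and clusters were chosen with earlier results of these data known. Sequences are from RefSeq, in which all 4 genes were matched, and positions from GENCODE. Python 3.11.15 with numpy 2.4.6, pandas 2.3.3, scipy 1.17.1 and matplotlib 3.10.9 was used. Depth was 48904976 to 53089402 UMIs per library, and intervals cover counting error only.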

Additional observations from a re-analysis of the deposited data

How the results depend on the processing

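No pair of *Npy*, *Npy1r*, *Npy2r* or *Npy5r* with all neurons, a cluster or a cell type was called under any alternative run, including a stricter choice of 77 clusters with 10 or more nuclei per library. Of 81 alternatives of 8 log2 changes, 77 kept their direction. The 8 were those of the 4 genes in all neurons and of *Fos*, 1700016P03Rik, *Homer1* and *Nr4a3* in *Npy* carriers. The latter 4 were the immediate early genes with an unadjusted edgeR p under 0.05 there, so their steady direction is no independent support. A setting whose gene filter left out a gene is not counted for it. For *Fos* and *Nr4a3* this was the case without AgRP-Gq;POMC-Gi replicate 2 and with filterByExpr. The filter of a UMI in at least 5% of nuclei left out *Nr4a3* in *Npy* carriers and *Npy* and *Npy2r* in all neurons. The exceptions in all neurons were *Npy*, at -0.26 to 0.69 with a library left out (the ends without AgRP-Gq;POMC-Gi replicates 2 and 1) and -0.032 outside cluster 178, and *Npy5r*, at -0.17 to 0.18 with the same libraries left out and -0.038 without TMM factors, which moved the median of all genes to -0.06. Immediate early genes called over the 4 sets of carriers numbered 0, but 1 (1700016P03Rik in *Npy* carriers, with 57 of 20702 genes called) with no filter beyond 1 UMI, and 0 to 2 with a library left out: 2 without control replicate 2 (1700016P03Rik and *Fos*, with 66 of 11340 genes called) and 1 without AgRP-Gq;POMC-Gi replicate 2 (1700016P03Rik, with 63 of 10715). The cause was not tested. Thinning to 2000 UMIs lowered the shares of neurons with a UMI to 0.939% (*Npy*), 1.55% (*Npy1r*), 0.731% (*Npy2r*) and 2.28% (*Npy5r*), by its construction. Without control replicate 2 the leading cluster of *Npy2r* was 49 in place of 142, and without AgRP-Gq;POMC-Gi replicate 1 that of *Npy1r* was 105 in place of 129. Without control replicate 1, and after thinning to 800 UMIs, *Npy* was highest in Ms4a4b immune cells.

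Counts over all genes moved more. In neurons 1 gene was called, against 12 by DESeq2, 0 with a UMI in at least 5% of nuclei, and 3, 12, 171 and 2559 without control replicates 1 and 2 and AgRP-Gq;POMC-Gi replicates 1 and 2. In clusters 242 pairs became 41 by DESeq2, 1102 with no filter, 537 with the 5% filter, 110 with filterByExpr and 826 to 1498 with a library left out. In cell types 121 became 916 with no filter and 184 to 1838 with a library left out. With the replicate number as a block, 216 genes were called in neurons, 648 pairs in clusters and 557 in cell types, and 0 involved the 4 genes, nor was an immediate early gene called in carriers. The labels do not say what a replicate number shares, so the numbers were not taken as pairs in the main fits. Deviations of same-numbered libraries correlated at r = 0.06 over 21200 genes. Choroid plexus nuclei did go with the number, at 2 and 6 in the replicate 1 and 436 and 329 in the replicate 2 libraries. Whether same-numbered libraries were handled together was not tested.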
